A study of Mus musculus with 6 samples.

Results

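A set of 10 genes that mark and maintain blood stem and progenitor cells was followed in the DNA methylation of germinal centre B cells: the transcription factor genes Tal1, Lmo2, Gata2, Erg, Meis1, Hlf and Mecom, and the surface protein genes Kit, Flt3 and Cd34. The data described are the CpG positions within 5 kb of the annotated span of each gene (GRCm38) that had at least 10 reads in all 6 libraries. These were 1343 of the 1463044 positions covered to that depth, each strand of a CpG counting as its own position. Gata2 held 349 of them, Mecom 253, Meis1 193, Tal1 131, Erg 107, Kit 95, Hlf 71, Flt3 67, Lmo2 53 and Cd34 24.

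The material was germinal centre B cells from the spleens of C57BL/6 mice, the dividing B cells in which antibody genes are diversified. The groups were Tet2 KO (knockout), with 3 libraries, and Tet2 WT (wild type), with 3 libraries. The labels do not give the deletion's design, the age of the animals, any immunisation, the sort used or whether the libraries came from separate animals. A p-value therefore sets the group difference only against how far libraries of a group lie apart, a spread moderated over all features of a kind. Some of that spread may be technical. Methylation was read by enhanced reduced representation bisulfite sequencing (ERRBS), in which DNA is cut at CCGG by the enzyme MspI and the ends of size-selected fragments are sequenced after bisulfite treatment, so CpG-rich sequence dominates and long stretches of each gene carry no covered CpG.

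In the stem cell programme, Tal1, Lmo2 and Gata2 proteins act together in a DNA-bound complex, Erg, Meis1, Hlf and Mecom sustain self-renewal, and Kit and Flt3 are receptor tyrosine kinases that receive growth factor signals. Several of these genes are turned down as progenitors commit to the B lineage, whereas LMO2 protein is a known marker of germinal centre B cells in human tissue. Tet2 oxidises 5-methylcytosine, first to 5-hydroxymethylcytosine, and bisulfite sequencing reads both as methylated, so each level given here is their sum.

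Before the members, the libraries were checked as a whole. Read counts summed over CpG positions were 180397494 to 195582108 in Tet2 KO and 174375503 to 203863392 in Tet2 WT. Mean coverage over the members was 119 to 128 reads in KO and 107 to 135 in WT. Within Tet2 itself, 6 CpG positions were absent from every KO library and listed in all WT libraries at 32 to 168 reads, while 108 were listed in all 6. No expression was measured, so the cell type label could not be checked by marker transcripts. By methylation, 5 of the 6 covered gene ends of B cell marker genes were under 20% in both groups, against 1 of 2 for T cell, 2 of 3 for myeloid, 1 of 2 for erythroid and 1 of 1 for endothelial markers.

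The windows of 4 promoters are printed because they held the most covered CpGs among the members and show the CpG-dense sequence on which the low levels described next were read. Each runs 5′ to 3′ on the gene's strand from 250 bases before to 50 bases after an annotated start (RefSeq, GRCm38.p6), and capitals mark CpGs covered in all 6 libraries on at least 1 strand. In order they lie at chr6:88193641-88193940 (plus strand), chr6:88198414-88198713 (plus strand), chr5:147400440-147400739 (minus strand) and chr11:90390868-90391167 (minus strand).
Gata2, upstream start: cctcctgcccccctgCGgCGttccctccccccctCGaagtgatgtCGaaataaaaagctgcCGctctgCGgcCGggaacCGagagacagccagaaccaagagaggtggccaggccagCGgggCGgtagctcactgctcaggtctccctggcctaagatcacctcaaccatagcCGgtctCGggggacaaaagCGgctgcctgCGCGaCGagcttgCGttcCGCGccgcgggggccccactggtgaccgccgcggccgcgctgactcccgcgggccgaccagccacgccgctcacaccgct
Gata2, downstream start: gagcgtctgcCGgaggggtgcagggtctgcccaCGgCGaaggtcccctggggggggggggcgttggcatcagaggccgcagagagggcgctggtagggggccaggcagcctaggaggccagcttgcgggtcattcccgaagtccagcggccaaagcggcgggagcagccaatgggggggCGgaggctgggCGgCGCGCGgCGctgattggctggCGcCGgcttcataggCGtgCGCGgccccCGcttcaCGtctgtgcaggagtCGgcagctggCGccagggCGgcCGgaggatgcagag
Flt3: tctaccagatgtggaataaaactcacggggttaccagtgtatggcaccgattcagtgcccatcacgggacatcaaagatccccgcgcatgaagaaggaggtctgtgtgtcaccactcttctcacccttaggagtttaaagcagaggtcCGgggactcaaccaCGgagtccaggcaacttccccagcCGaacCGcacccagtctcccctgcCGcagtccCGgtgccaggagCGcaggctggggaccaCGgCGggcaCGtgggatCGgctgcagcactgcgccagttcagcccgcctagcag
Hlf: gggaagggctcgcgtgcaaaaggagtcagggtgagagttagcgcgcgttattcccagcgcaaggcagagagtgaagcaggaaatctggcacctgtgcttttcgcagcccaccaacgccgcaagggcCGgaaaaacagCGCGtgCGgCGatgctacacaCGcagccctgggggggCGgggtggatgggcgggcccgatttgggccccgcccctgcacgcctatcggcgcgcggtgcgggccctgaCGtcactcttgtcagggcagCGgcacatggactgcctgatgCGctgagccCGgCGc

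Methylation was low throughout these windows. The window at the upstream Gata2 start had 22 covered positions, whose mean level was 1.68% in KO and 1.51% in WT. The window at the downstream Gata2 start had 24 positions, at 0.812% in KO and 0.393% in WT. The Flt3 window had 14 positions, at 0.173% in KO and 0.186% in WT, and the Hlf window had 13, at 0.370% in KO and 0.277% in WT. No single position in these 4 windows exceeded 12.8% in any library. The MspI site CCGG, which is its own reverse complement, was found in 11 of the 15 RefSeq windows of the members and in 52.8% of all 32851 mouse windows in the table. GATAA, the core bound by GATA factors, was found on either strand in 5 of the 15 member windows and in 25.4% of all windows (the last base of CCGG can be the first of GATAA). Lmo2 had no entry in that table.

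At 9 of the 10 genes the gene end was nearly free of methylation in both groups. A gene end was taken as the 1 kb on either side of the annotated start, and for Lmo2, whose strand the RefSeq tables do not give, of the annotated end with more covered CpGs. Of the 355 covered positions in those 9 ends, 352 had a WT mean under 20%. The level from added reads was 0.105% to 3.33% in KO and 0.101% to 3.14% in WT, and the KO minus WT differences lay between -0.351 and 0.230 percentage points. Over all 13747 covered gene ends of protein-coding genes the median was 0.543% in KO and 0.484% in WT, and 77.0% of ends were under 5% in WT. A strand was given for 17492 of the 21900 protein-coding genes, and for the others the end was chosen as for Lmo2. Not all of these ends are therefore starts.

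Among the transcription factors, the Tal1 end averaged 1.12% ± 0.348 in KO and 1.01% ± 0.069 in WT over 63 positions (SD, n = 3 each, as for all group values below). Gata2 averaged 1.88% ± 0.495 in KO and 1.92% ± 0.233 in WT over 69 positions. Erg, an ETS family factor, averaged 1.27% ± 0.620 in KO and 1.30% ± 0.351 in WT, from 7 positions only. In all of these the libraries of the groups overlapped. The homeodomain factor Meis1 averaged 0.717% ± 0.126 in KO and 0.998% ± 0.367 in WT, and Mecom, a zinc finger factor also known as Evi1, averaged 3.33% ± 0.064 in KO and 3.14% ± 1.40 in WT, the highest level of the 9.

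Hlf, a PAR family bZIP factor, had the low end, alone among the 9, whose libraries did not overlap in added reads, a separation with KO higher that 9.81% of all 13747 covered ends showed. Its levels were 0.422%, 0.548% and 0.434% in KO replicates 1, 2 and 3, against 0.283%, 0.405% and 0.026% in WT replicates 1, 2 and 3. With 1 more methylated read WT replicate 2 would stand at 0.441%, above KO replicate 1. All 6 lay under 1%, and the groups were 0.230 points apart, resting on 14 to 18 methylated reads per library in KO and 1 to 11 in WT. At this level the end was outside the range tested (a mean of 5% to 95% over the libraries), so no test was made.

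The surface protein genes had equally low ends. Kit averaged 1.93% ± 0.561 in KO and 1.87% ± 0.958 in WT, and Cd34, a sialomucin of progenitors and endothelium, averaged 1.56% ± 0.042 in KO and 1.92% ± 0.402 in WT. The Cd34 libraries overlapped in added reads. With every position weighted equally they did not, at 1.36% to 1.66% in KO and 1.73% to 2.72% in WT. Flt3 had the lowest end, with 0.105% ± 0.039 in KO and 0.101% ± 0.175 in WT. The 3 KO libraries had 2 to 4 methylated reads there, summed over positions, and WT replicates 1 and 3 had 0 of 3043 and 0 of 3008. If all these counts were independent, that would allow a share of up to 0.0986% and 0.0997% by counting error alone.

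Lmo2, which encodes the LIM-only protein that bridges Tal1 and Gata2, was read differently, with a methylated annotated end and a nearly unmethylated rest of the span. Whether that end holds its start is not known here. Its end and body may therefore not correspond to those of the other genes. The end was read at 91.6%, 92.3% and 88.4% in KO replicates 1, 2 and 3, against 76.6%, 89.1% and 83.1% in WT replicates 1, 2 and 3. KO replicate 3 lay below WT replicate 2, so the groups overlapped in added reads. The means were 90.8% ± 2.07 in KO and 82.9% ± 6.26 in WT over 5 positions, 7.84 points apart, and the difference did not pass (adjusted p = 0.511, quasi-binomial logistic model with limma-moderated dispersion). With every position weighted equally the groups did not overlap, at 84.9% to 91.2% in KO and 73.4% to 83.4% in WT, 9.73 points apart. The share of all ends that separate in that weighting was not computed. The Lmo2 body was at 2.71% ± 0.822 in KO and 2.45% ± 1.08 in WT over 46 positions, and most of its covered CpGs lay in 3 adjacent 1 kb tiles starting at 103969001, 103970001 and 103971001 on chromosome 2, whose centres were 11597 to 13597 bp from that end.

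Of other stem and progenitor genes on a list of 25, 18 had both an end and a body to compare, and those nearest to this layout by the summed distance of the WT levels were Spi1 at 55.0 points, Fli1 at 80.8 and Cebpa at 82.4. The nearest, Spi1, which encodes the ETS factor PU.1, had an end of 68.0% in KO and 56.0% in WT over 3 positions at its denser annotated end and a body of 34.3% in KO and 30.5% in WT. The distances are large, so none of the 18 had a closely similar layout.

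Lmo2 was the only member end in the tested range, and it was not called, so 0 of 1 was called (an adjusted p under 0.05 with means at least 10 points apart) against 0.0633% of the 3159 ends tested in the whole data. Its unadjusted p was 0.081, so 0 of 1 was under 0.05. With limma on the log2 ratio of methylated over unmethylated counts, 1 was under 0.05 and 0 were called. Limma called 0 of the 3159 ends in the whole data.

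**Figure D1:**
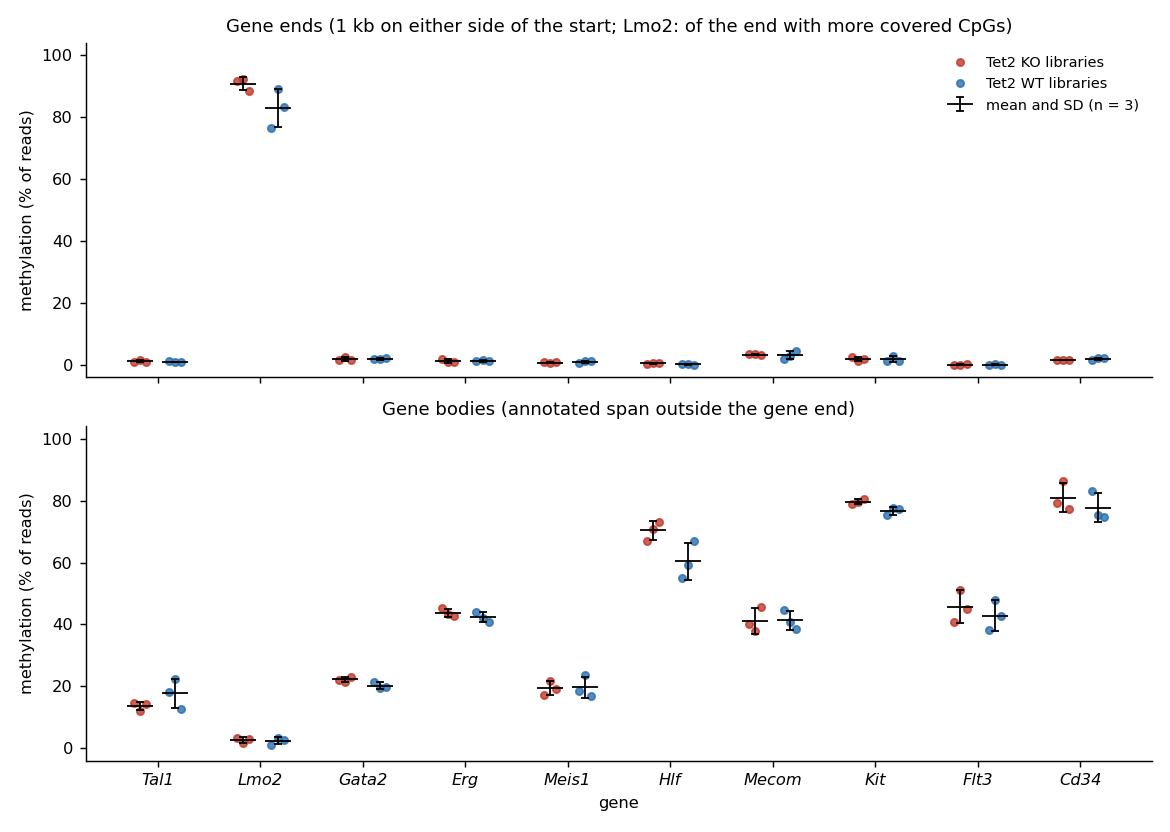
Methylation (percent of reads) of the gene end (top) and of the rest of the gene span (bottom) for each gene, with Tet2 KO libraries left of Tet2 WT libraries, 1 point per library, the bar at the mean and whiskers of 1 SD (n = 3). The ends of 9 genes lie under 5% in every library, Lmo2 has a high end and a low body, and the bodies range from 2.45% to 77.7% in WT.

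The gene bodies spanned the whole scale. In WT, bodies ran from Lmo2 at 2.45% through Tal1 at 17.8%, Meis1 at 19.7%, Gata2 at 20.3%, Mecom at 41.4%, Erg at 42.4%, Flt3 at 42.9%, Hlf at 60.4% and Kit at 76.8% to Cd34 at 77.7%. Tal1, Meis1 and Gata2 could not be ordered beyond their spread, nor could Mecom, Erg and Flt3, nor Kit and Cd34. Over all members 68.0% of positions were under 20% in WT and 19.4% over 80%, beside 61.1% and 28.0% of all covered positions.

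These averages hide a division within genes. In the bodies 437 of the 817 positions were under 20% in WT, 145 were between 20% and 80%, and 235 were over 80%. Kit had 43 of its 59 body positions over 80% and Cd34 5 of 6, whereas Lmo2 had 44 of 46 under 20%. Mecom had 86 of 187 under 20% and 81 over 80%, so its mean of 41.4% describes few of its CpGs. Hlf was the exception, with 23 of 40 body positions between 20% and 80%.

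**Figure D2:**
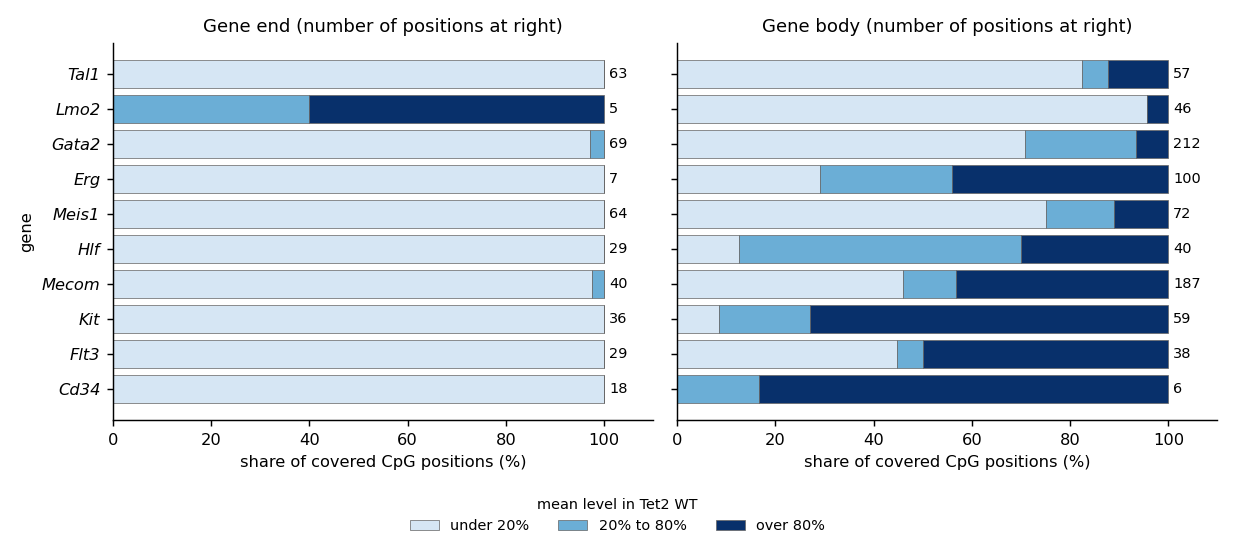
Share of covered CpG positions (percent) with a Tet2 WT mean under 20%, from 20% to 80% and over 80%, in the gene end (left) and gene body (right) of each gene, with the number of positions at the right of each bar. Ends are almost wholly under 20% except Lmo2, with 5 positions, and Hlf has the largest share of body positions between 20% and 80%.

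Much of the low body methylation sat in separate low tiles. A tile is a fixed 1 kb stretch with at least 3 covered positions. Of 80 body tiles, 20 in 7 genes had a WT mean under 10%, all 20 were also under 10% in KO, and KO minus WT differed by -2.80 to 2.55 points. Of the 20, 9 lay within 1 kb of a start in the RefSeq promoter table, such as the Gata2 tile at 88198001 on chromosome 6, over its downstream start, with 2.61% in KO and 2.10% in WT over 57 positions. The Mecom tile at 30013001 on chromosome 3 had 2.03% in KO and 1.31% in WT and covers a start 496259 bp inside the gene (tile centre). Others lay far from any listed start, such as the Tal1 tile at 115063001 on chromosome 4, 7074 bp inside the gene, with 1.16% in KO and 1.36% in WT over 43 positions, and the Flt3 tile at 147366001 on chromosome 5, with 1.39% in KO and 0.933% in WT over 15 positions.

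**Figure D3:**
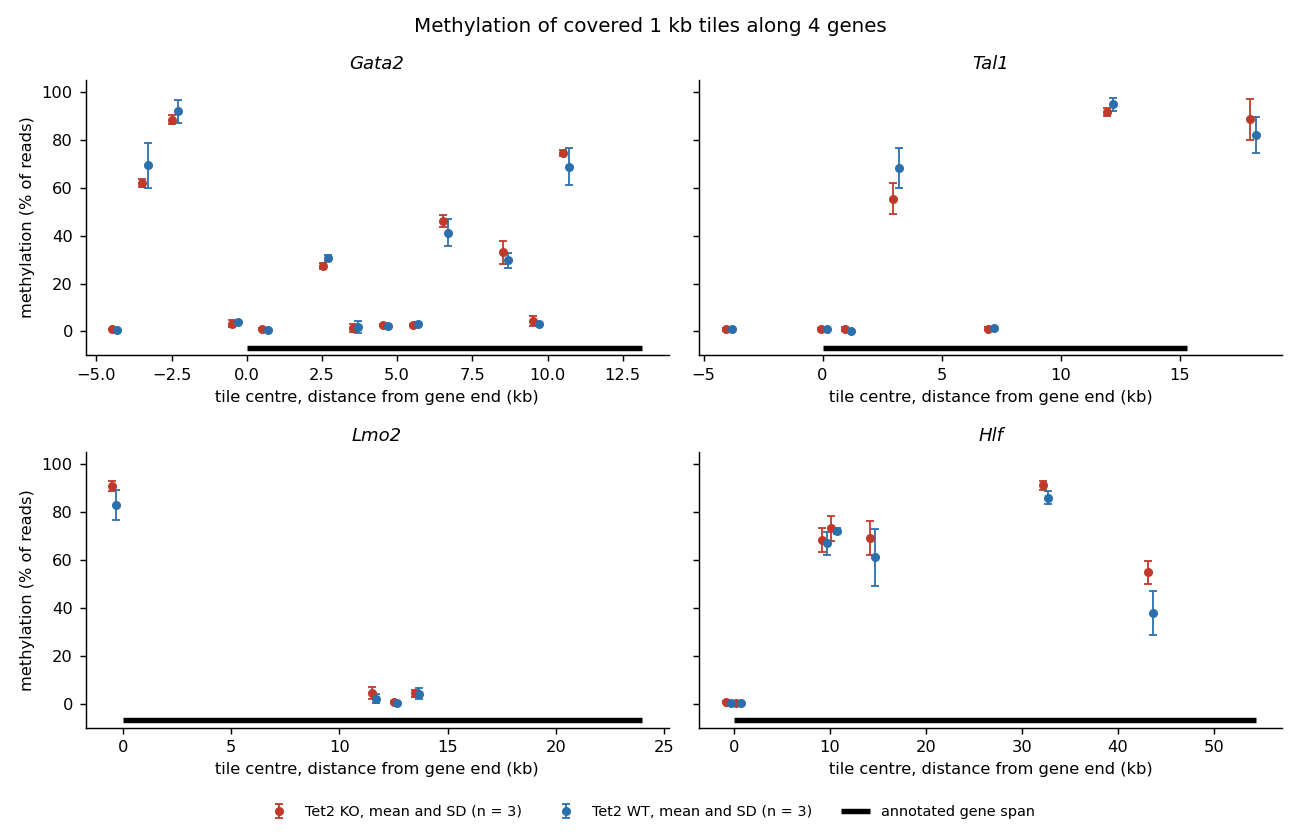
Methylation (percent of reads) of each covered 1 kb tile against the distance of its centre from the gene end (kb), for Gata2, Tal1, Lmo2 and Hlf, as mean and SD of 3 Tet2 KO libraries (red) and 3 Tet2 WT libraries (blue, drawn slightly to the right), with the gene span in black. Low and high tiles alternate within a gene in both groups, and the tile near 43 kb in Hlf has the widest gap between the groups.

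No gene body was called. Of 9 tested bodies (Lmo2 was too low), 0 passed, against 0.0656% of the 10678 bodies tested in the whole data. An unadjusted p under 0.05 was found for 3 of them, where 17.9% of all bodies had one. Limma on log2 ratios gave 0 calls with 1 such p, as did the model without moderation. Each of these called 0 of the 10678 bodies in the whole data. Of the 9 bodies, 6 were higher in KO and 3 lower, with a median difference of 2.01 points, where the median of all bodies was 1.68. The groups did not overlap in 3 bodies, all higher in KO (Hlf, Gata2 and Kit), beside 21.9% of all tested bodies, and with positions weighted equally they overlapped in all 3. Such separation, KO above WT, was thus common among gene bodies at large.

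The Hlf body had the largest difference. Its levels were 67.0%, 70.9% and 73.2% in KO replicates 1, 2 and 3, against 55.1%, 59.2% and 67.0% in WT replicates 1, 2 and 3. The lowest KO library, at 66.99%, lay barely above the highest WT library, at 66.96%. The means were 70.4% ± 3.15 in KO and 60.4% ± 6.03 in WT, 9.95 points apart (adjusted p = 0.162, not called). Without WT replicate 3 the difference was 13.2 points and was called (adjusted p = 0.0398), but 118 of 10672 tested bodies (1.11%) were then called, against 7 with all libraries. With every position given equal weight it was 7.07 points and the groups overlapped.

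The Gata2 body was at 22.2%, 21.6% and 23.0% in KO replicates 1, 2 and 3, against 21.5%, 19.4% and 19.8% in WT replicates 1, 2 and 3. KO replicate 2 and WT replicate 1 almost met. The means, 22.3% ± 0.691 in KO and 20.3% ± 1.11 in WT, were 2.01 points apart (adjusted p = 0.218), and 0.339 points apart with equal weight per position. Upstream of the gene the sign was the other one, with 24.6% ± 0.589 in KO and 27.7% ± 1.08 in WT over the 68 flank positions, which were not tested as a unit.

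The Kit body was at 79.0%, 79.5% and 80.5% in KO replicates 1, 2 and 3, against 75.3%, 77.6% and 77.4% in WT replicates 1, 2 and 3. No library of either group crossed into the other's range. The means were 79.7% ± 0.740 in KO and 76.8% ± 1.31 in WT, 2.93 points apart (adjusted p = 0.263), and with equal weight per position the gap was 0.363 points and the groups overlapped. KO was higher at 29 of its 59 positions and lower at 30.

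The other bodies overlapped between the groups. Tal1 had the lowest KO value relative to WT, 13.7% ± 1.36 in KO and 17.8% ± 4.79 in WT (adjusted p = 0.479), and the WT libraries ran from 12.7% to 22.3%. Cd34 was at 81.0% ± 4.75 in KO and 77.7% ± 4.61 in WT (adjusted p = 0.765), and Flt3 at 45.7% ± 5.29 in KO and 42.9% ± 4.90 in WT (adjusted p = 0.676). Erg was at 43.8% ± 1.28 in KO and 42.4% ± 1.69 in WT (adjusted p = 0.598). The KO minus WT difference was -0.312 points in Meis1 (adjusted p = 0.961) and -0.235 points in Mecom (adjusted p = 0.943).

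By 1 kb tile, none of the members was called either. Of 106 member tiles, 63 were in the tested range and 0 passed, against 0.687% of 83114 tiles in the whole data. An unadjusted p under 0.05 was found for 8 member tiles (12.7%, where 11.5% of all tiles had one), 6 of them higher in KO and 2 lower. Limma on log2 ratios gave 0 calls with 3 such p, and the model without moderation 0 calls with 5. Each of these called 0 of the 83114 tiles in the whole data. The median tile difference was 1.55 points, where the median of all tested tiles was 1.28, and 38 of 63 tiles (60.3%) were higher in KO, where 64.0% of all tiles were.

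The libraries of the groups did not overlap in 7 tiles with KO higher, beside 12.7% of all tested tiles, and in 3 with KO lower, beside 3.54%. These 10 were 3 of Erg, 2 of Hlf and 2 of Mecom on the higher side and 1 each of Meis1, Mecom and Gata2 on the lower side. The WT SD exceeded the KO SD in 41 of the 63 tiles (65.1%), close to the 66.5% of all tested tiles. The member shares lie near the whole-data shares.

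**Figure D4:**
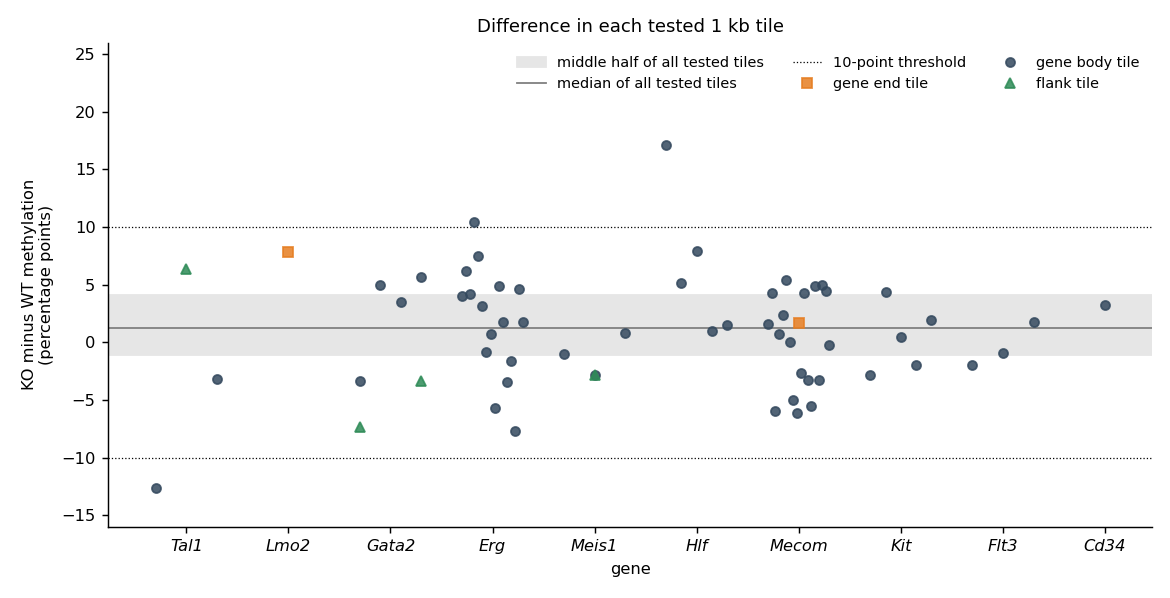
KO minus WT methylation (percentage points) of each of the 63 tested 1 kb tiles by gene, coloured by position in the gene, with the median and the middle range of all tested tiles in grey and the 10-point threshold dotted. The Hlf tile at 17.1 points and the Erg tile at 10.5 points lie above the threshold and the Tal1 tile at -12.7 points below it; none passed the test.

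The member tile with the largest difference and the smallest p lies in the Hlf body at chr11:90347001-90348000, with its 12 covered positions between 90347786 and 90347978, 42939 to 43131 bp from the start. Its levels were 50.8%, 53.6% and 60.1% in KO replicates 1, 2 and 3, against 35.6%, 29.8% and 47.8% in WT replicates 1, 2 and 3. Every KO library was above every WT library. The means were 54.8% ± 4.77 in KO and 37.7% ± 9.20 in WT, 17.1 points apart, which missed the threshold (adjusted p = 0.0958, quasi-binomial logistic model). Each library had 713 to 1651 read counts summed over the 12 positions, a read over several CpGs counting at each. Taken as independent, these counts give a Wilson 95% interval of 2.31 to 3.65 points to either side. That interval is too narrow and cannot be set against the spread between libraries. Without WT replicate 3, the WT library nearest to KO, the difference was 22.1 points and was called (adjusted p = 0.0111), while calls over all tested tiles were then 1164 of 82780 (1.41%), against 571 with all libraries. With limma on log2 ratios the adjusted p of this tile was 0.488, and without moderation 0.551. In both settings 0 of all 83114 tested tiles were called.

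The single CpGs of that tile differed to unequal extents. KO was higher at 11 of the 12 positions and by 10 points or more at 8. The libraries of the groups did not overlap at 4, all higher in KO and all on the reverse strand, beside 8.3% of all tested positions. The tile was singled out for its difference, so these counts only describe it. At position 90347963, reverse strand, KO replicates 1, 2 and 3 were read at 39.3%, 39.1% and 41.6%, against 11.5%, 10.4% and 9.68% in WT replicates 1, 2 and 3. The group means were 29.5 points apart and the adjusted p was 0.0807, the smallest of any member position. On the forward strand of the same CpG, at 90347962, the groups overlapped, with 30.1% to 44.5% in KO and 4.30% to 34.1% in WT. A neighbour on the reverse strand, 90347948, ran from 35.1% to 61.4% in KO and from 3.85% to 34.4% in WT. Position 90347860, forward strand, was the exception at 57.4% in KO and 68.3% in WT. The reverse strand of that CpG, at 90347861, went the other way, at 60.6% in KO and 43.4% in WT. The reverse-strand positions from 90347941 to 90347978 had nearly equal coverage in each library, as did the forward-strand positions from 90347921 to 90347962, as positions read on the same fragments do, so these are not independent readings.

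**Figure D5:**
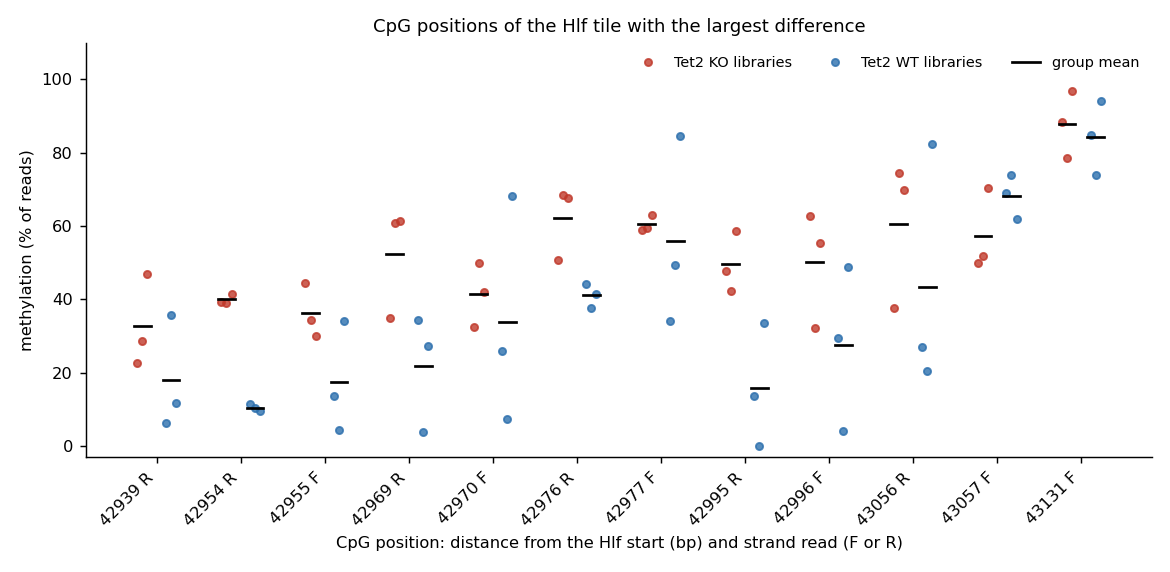
Methylation (percent of reads) at the 12 covered CpG positions of the Hlf tile, by distance from the start (bp) and strand read, 1 point per library with Tet2 KO left of Tet2 WT and a bar at each mean. KO means are higher at 11 of 12 positions, and the position at 42954 bp has the tightest groups.

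Erg had the other tile past 10 points on the higher side, at chr16:95436001-95437000, deep in its body. It was read at 33.1%, 34.3% and 34.0% in KO replicates 1, 2 and 3, against 17.3%, 27.0% and 25.7% in WT replicates 1, 2 and 3. The KO libraries lay together and above all WT libraries. The means were 33.8% ± 0.587 in KO and 23.3% ± 5.28 in WT, 10.5 points apart (adjusted p = 0.183, 5 positions). At its position 95436935, reverse strand, KO ran from 47.8% to 61.1% and WT from 25.4% to 31.4% (adjusted p = 0.0903).

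Tal1 had the largest difference downward, at chr4:115059001-115060000, 3074 bp inside the gene. The tile was read at 48.0%, 58.7% and 59.7% in KO replicates 1, 2 and 3, against 71.5%, 74.2% and 58.6% in WT replicates 1, 2 and 3. WT replicate 3 lay among the KO libraries. The means were 55.5% ± 6.49 in KO and 68.1% ± 8.32 in WT, a KO minus WT difference of -12.7 points (adjusted p = 0.328, 6 positions). With every position weighted equally the gap was -8.34 points.

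The largest tile differences of the remaining genes were smaller than 10 points. Gata2 had 27 positions in a flank tile at 88190001 on chromosome 6, at 62.0% ± 1.57 in KO and 69.3% ± 9.30 in WT (adjusted p = 0.440), and the KO minus WT difference of -7.35 points was -12.2 without WT replicate 1 and -2.96 without WT replicate 2. Another Gata2 tile, at 88196001 between its starts, was read at 28.5%, 25.9% and 27.3% in KO replicates 1, 2 and 3, against 30.8%, 31.7% and 29.3% in WT replicates 1, 2 and 3. That tile was lower in every KO library, by 3.37 points on average (adjusted p = 0.373), in a gene whose body as a whole was higher in KO.

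Mecom had a tile at 30361001 on chromosome 3 at 84.3% ± 9.86 in KO and 90.5% ± 0.882 in WT (adjusted p = 0.659), where KO replicate 2 stood apart at 73.3%. The difference there was -6.15 points, and -0.625 without KO replicate 2 or -10.1 without KO replicate 3. Its tile at 30438001 had 83.6% ± 1.83 in KO and 78.6% ± 2.94 in WT (adjusted p = 0.528), without overlap. Meis1 had its largest difference in the flank beyond the far end of the gene, at 18876001 on chromosome 11, with 5.26% ± 1.74 in KO and 8.14% ± 0.154 in WT (adjusted p = 0.521).

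In the surface protein genes every tested tile differed by less than 5 points. The Kit tile at 75589001 on chromosome 5 had 78.8% ± 18.1 in KO and 74.4% ± 13.0 in WT from as few as 76 reads per library (adjusted p = 0.975), and the Kit tile at 75578001 had 15.6% ± 3.81 in KO and 18.4% ± 5.32 in WT (adjusted p = 0.736). The Flt3 tile at 147349001 had 47.7% ± 3.20 in KO and 49.7% ± 4.48 in WT (adjusted p = 0.970), and that at 147388001 had 61.8% ± 5.99 in KO and 60.0% ± 8.14 in WT (adjusted p = 0.949). Leaving out 1 library at a time moved the difference between -5.69 and 11.9 points in the Kit tile at 75589001, -5.74 and -0.582 in that at 75578001, -3.59 and 0.602 in the Flt3 tile at 147349001 and -2.57 and 5.48 in that at 147388001. The single tested Cd34 tile, at 194960001 on chromosome 1, is its whole covered body and was described above; its difference ran from 0.575 to 5.91 points in the same way.

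At single positions, 455 of the 1343 were in the tested range and 0 were called, against 0.294% of the 525213 positions tested in the whole data. At an unadjusted p under 0.05 there were 38 (8.35%, where 8.70% of all tested positions were), 29 with limma and 30 without moderation. KO was higher by 10 points or more at 69 of the 1343 (5.14%) and lower by as much at 35 (2.61%), beside 5.79% and 2.68% of all covered positions. Of the 69, 12 were in the Hlf body, whose 40 positions were higher in KO at 31.

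Beyond the members, the list of 25 other stem and progenitor genes had 191 tested tiles, of which 1 (0.524%) was called, higher in KO, and 0 were called lower. That share lies near the 0.687% of all 83114 tested tiles that were called. The called tile lies in Etv6, an ETS family repressor needed by blood stem cells, at chr6:134182001-134183000. It was read at 83.7%, 80.8% and 86.8% in KO replicates 1, 2 and 3, against 42.9%, 65.4% and 59.6% in WT replicates 1, 2 and 3. The groups did not overlap, and Etv6 methylation rose there by 27.8 points to 83.7% ± 2.998 in KO, against 56.0% ± 11.7 in WT (adjusted p = 0.0206). The call did not hold without KO replicate 1, 2 or 3 (adjusted p = 0.108, 0.0674 and 0.0981), with limma on log2 ratios (0.373), without moderation (0.457) or with all covered features tested (0.158). Those settings called few tiles anywhere, against 571 in the test used above. The counts were 142, 124 and 155 without KO replicate 1, 2 or 3, and 0 with limma or without moderation. With all covered features tested, 8 of 113541 tiles were called. With limma or without moderation, where no tile passed, the lost call does not set this tile apart. In the other settings some tiles passed and this one did not. Over that list 61.3% of tiles were higher in KO with a median difference of 0.866 points, beside 64.0% and 1.28 points over all tested tiles. Of its 19 covered gene ends, 18 were under 20% in both groups.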

How the data were processed

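Bisulfite reads were aligned with Bismark to GRCm38, per the submitters' processing notes, with version, filters and caller settings not given in the sources used here. The authors deposited a table per library that gives per CpG position and strand a read count (coverage) with the percent called C (methylated) or T, and no position under 10 reads. From these, whole methylated and unmethylated read counts were recovered at every position, and reads of another base (0.0172% to 0.0189%) were left out. Wherever reads were added over positions, a read over several CpGs counted at each. PCR copies could not be told from separate molecules. Intervals take all counts as independent and cover counting error only, so they are too narrow.

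Levels were computed for single positions, 1 kb tiles (3 or more positions), gene ends (3 or more) and gene bodies (5 or more), adding reads per library, and group values are unweighted means of 3 libraries. Gene spans, starts and promoter sequences came from RefSeq (GRCm38.p6), and exons were not analysed here. All features of a kind with a mean of 5% to 95% were tested with a quasi-binomial logistic model on read counts, its dispersion moderated by limma's empirical Bayes method (limma 3.58.1, R 4.3.3, and Python 3.11.15), with Benjamini-Hochberg adjustment over all of them. The method was tested on simulated data. Same-numbered libraries were not paired by the labels.

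The 10 genes, the gene lists, the named tiles (each gene's largest difference and smallest p) and the printed promoters (those with the most covered positions) were chosen with earlier results of these data known.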

Additional observations from a re-analysis of the deposited data

How the results depend on the processing

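No member value changed sign as a called result under any alternative run. The 0 member tiles called became 1 with the replicate block, which treats same-numbered libraries as paired. They became 0 to 1 when 1 library at a time was left out. Of all tested tiles, 1.07% were called with the block and 0.149% to 1.41% with 1 library left out, against 0.687% in the main test. The 0 member CpGs called became 1 with all covered features tested, 2 with the strands merged, and 0 to 3 when 1 library was left out. The shares of all tested CpGs were 0.0141%, 0.35% and 0.105% to 0.701% in these settings, against 0.294% in the main test. The 0 gene bodies called became 0 to 1 when 1 library was left out, beside 0% to 1.11% of all bodies. The gene ends called stayed at 0 throughout, beside at most 0.252% of all ends. The member calls came from Hlf, except 1 CpG in Erg without WT replicate 2 and 1 in Gata2, lower in KO, without WT replicate 3. For the Hlf tile the adjusted p was 0.0190 with the replicate block, 0.0111 without WT replicate 3 and 0.551 without moderation of the dispersion, and the difference ran from 13.1 to 22.1 points. The cause was not tested. Numbers pair no libraries in the labels, and deviations of same-numbered KO and WT libraries correlated at 0.0229, 0.0022 and 0.0037 for replicates 1, 2 and 3. The median tile difference ran from 0.354 to 1.81 points and the median body difference from 0.416 to 1.81. Of 561 alternative values for 35 tiles, ends and bodies, 549 kept their call or stayed uncalled within 1 SD. Much of that count was fixed in advance and is no measure of stability. Leaving out 1 of 3 libraries cannot move a difference by 1 SD pooled over the groups. Settings that change only the test leave the difference as it was. Values that moved were 3, the Gata2 and Kit bodies with positions weighted equally, at 0.339 and 0.363 points, and the Kit body with ends of 500 bp, at 1.20. A call was gained by 3, all in Hlf, and lost by 6, all for the Etv6 tile.

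A call needed 10 points by rule, and with 3 libraries a group the precision is limited by their spread, which was larger in WT in 65.1% of the member tiles. Tiles follow fixed borders, and in most of the genes few were covered. CpGs outside the sequenced MspI fragments were not read, and 5-methylcytosine and 5-hydroxymethylcytosine cannot be told apart.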

Other observations

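Within Kit, 2 positions on the reverse strand, at 75595127 and 75595132 on chromosome 5, were listed in no KO library and in all WT libraries. Their coverage in WT replicates 1, 2 and 3 was 24, 47 and 20 reads at the first and 27, 51 and 20 at the second. Positions under 10 reads are left out of the tables, so lower coverage in KO would look the same, and the reason was not tested.

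Where both strands of a CpG were covered and tested, at 43 CpGs of the members, the forward and reverse levels differed by a median of 4.53 points in KO and 6.84 points in WT, close in size to many of the differences between the groups. Over the 52 tested tiles of B cell marker genes, 4 (7.69%) were called higher in KO, beside 0.687% of all tested tiles called in either direction. Of these 52 tiles, 23 lay in Pax5 and 19 in Ebf1, so few other B cell genes were read. KO was higher in 47 (90.4%), and the median difference was 5.85 points, beside 64.0% and 1.28 points over all tested tiles. In the other marker lists 1 of 19 myeloid tiles (5.26%) and 1 of 34 endothelial tiles (2.94%) were called. None of 14 T cell or 8 erythroid tiles was called. The difference between the B cell marker genes and the stem and progenitor genes, with 0 of 63 tiles called, was not tested.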
